A study of Mus musculus with 8 samples.

Results

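The genes described here are 9 members of the small leucine-rich proteoglycan family: Dcn (decorin), Bgn (biglycan), Aspn (asporin), Lum (lumican), Fmod (fibromodulin), Omd (osteomodulin), Prelp, Ogn (osteoglycin) and Podn (podocan). They were chosen by gene symbol, and all 9 are among the 21997 genes listed for both follicle sources. RNA was sequenced from 8 single ovarian follicles of C57BL/6 mice, 1 library per follicle, in 4 groups of 2. The groups were small antral follicles from transplanted female germline stem cells (SAF-TF), small antral follicles of wild type mice (SAF-WT), preantral follicles from the transplanted cells (PF-TF) and preantral follicles of wild type mice (PF-WT). Preantral follicles are the earlier stage, before the fluid-filled antrum opens. Female germline stem cells (FGSCs) are germ cells isolated from ovaries that can be cultured and transplanted. Not stated in the labels are the hosts, their ages, the share of graft and host cells in a TF follicle, and whether the follicles within a group are from different animals. P-values therefore measure the spread between these follicles only.

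Small leucine-rich proteoglycans are secreted core proteins built of tandem leucine-rich repeats, most of which carry chondroitin, dermatan or keratan sulfate chains. They bind fibrillar collagens and shape fibril width and spacing, and decorin and biglycan also bind TGF-beta and take part in growth factor and innate immune signalling. In the ovary, fibrillar collagen lies mostly outside the follicular basal lamina, in the stroma and the thecal layers, and decorin has been located there in the cow.

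Total counts per library ran from 7656108 to 9805287, so that a count of 0 allows up to 3 counts, or 0.306 to 0.392 CPM (counts scaled to a common library size), for counting error only. Levels are given as CPM with TMM factors, and fold changes as log2 fold changes ± SE from edgeR's quasi-likelihood test, with p-values adjusted by Benjamini-Hochberg over the 17925 genes tested and a threshold of 0.05. A chi-square of replicate counts, divided by its degrees of freedom, came to 10.2 in SAF-WT, the closest pair, and 36.8 in PF-WT, the most distant one, where counting error alone gives about 1. Defining markers of oocytes and granulosa cells were detected in all 4 groups, and no marker of the 9 cell type lists used was at 0 in both libraries of any group. Of the members, 8 passed the filter on low counts. Podn did not, and is described by its counts alone.

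The proteoglycan transcripts differed between stages in both sources. In bulk RNA of whole follicles, fewer cells of a type and less RNA per cell cannot be told apart. In the transplant-derived follicles, 6 of the 8 tested members were higher in SAF-TF than in PF-TF (18.2% of all genes tested were higher) and 2 were lower (25% of all genes were lower). In the wild type, 6 of 8 were higher in SAF-WT than in PF-WT (12.7% of all genes) and 0 were lower (22.5% of all genes; 0 members were lower at an unadjusted p under 0.05, and 0 by DESeq2). Between sources, 3 of 8 were lower in SAF-TF than in SAF-WT (5.34% of all genes) and 0 were higher (4.61% of all genes). Between PF-TF and PF-WT, edgeR called 0 members, against 0.0669% of all genes higher and 0.151% lower. At an unadjusted p under 0.05, 6 members were lower, where 3719 of all 17925 genes passed in either direction. DESeq2 called 3 members lower, Dcn, Bgn and Ogn, where it called 965 of all genes lower and 316 higher. The median log2 fold change of the 8 members was 4.77 in the TF stage comparison and 3.0 in the WT stage comparison, where all genes had medians of -0.08 and -0.20. It was -1.27 between sources in small antral follicles and -2.37 in preantral follicles, where all genes had medians of 0.00 and -0.03. The libraries of the groups compared did not overlap for 8 members in each stage comparison and 7 in each source comparison, and across all genes they did not overlap for 74.2% (TF stages), 70.9% (WT stages), 63.8% (SAF sources) and 49% (PF sources). Both stage comparisons share libraries with both source comparisons. With the authors' scale factors the median of all genes shifted by 0.35 (TF) and 0.34 (WT) in the stage comparisons, and 56.2% (TF) and 53.5% (WT) of all calls were higher in place of 42.1% and 36.0%. With total counts alone, the median shifted by 0.14 between SAF-TF and SAF-WT, and 65.1% of calls were higher in place of 46.3%. The direction of every member held under each scaling except that of Prelp between PF-TF and PF-WT.

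**Figure D1:**
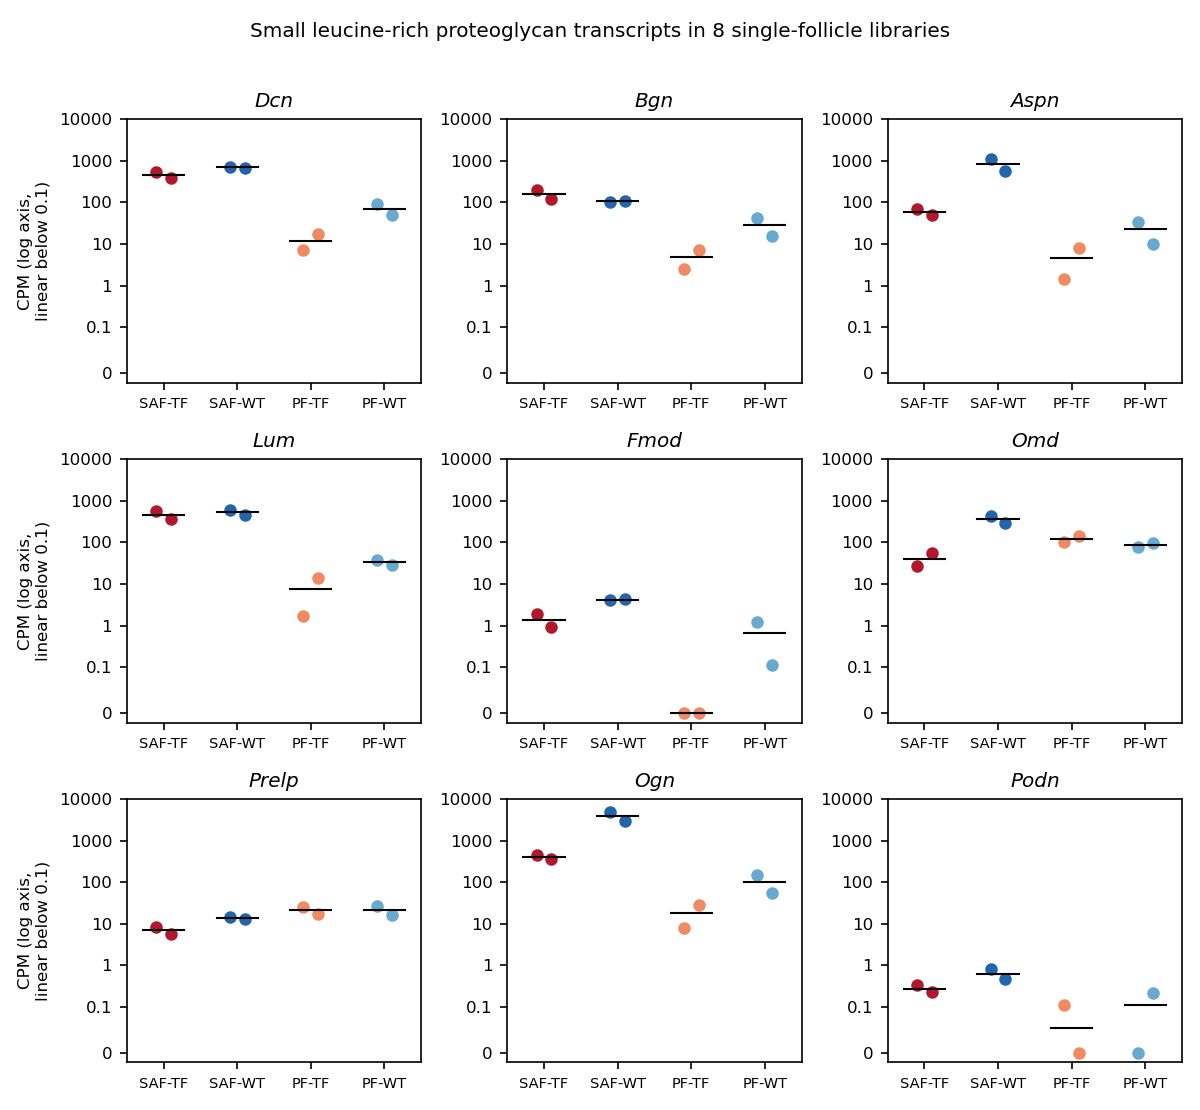
CPM of each member in each of the 8 libraries (points; axis logarithmic, linear below 0.1), with the group mean as a line. Dcn, Bgn, Aspn, Lum and Ogn are higher in all 4 small antral than in all 4 preantral follicles, Omd is lowest in SAF-TF and highest in SAF-WT, and Prelp is lowest in SAF-TF.

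**Figure D2:**
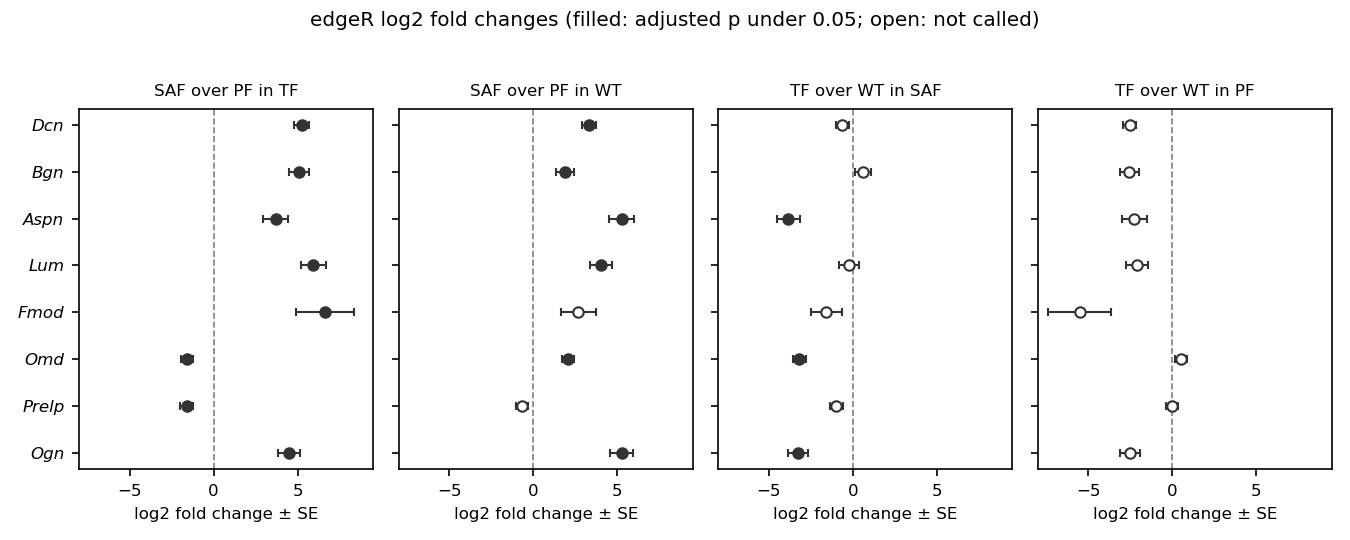
Log2 fold changes ± SE of the 8 tested members in the 4 comparisons, from the quasi-likelihood fit over all 8 libraries, with filled points for an adjusted p under 0.05. Omd lies left of 0 in the TF stage comparison and right of 0 in the WT one; the Fmod values against PF-TF depend on the prior count, since PF-TF had no Fmod counts.

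In the decorin class, Dcn, which carries a single chondroitin or dermatan sulfate chain and binds collagen fibrils and TGF-beta, measured 544 and 381 CPM in SAF-TF, 726 and 687 CPM in SAF-WT, 7.31 and 17.0 CPM in PF-TF, and 91.7 and 50.3 CPM in PF-WT. Every small antral follicle lay above every preantral one, and both PF-TF libraries lay below both PF-WT libraries. Dcn rose with stage by 5.25 ± 0.46 in TF (adjusted p = 4.1e-05) and by 3.32 ± 0.41 in WT (adjusted p = 3.9e-04). Dcn had a difference between both stage effects of 1.93 ± 0.55 (adjusted p = 0.137), and of 1.92 with DESeq2 (adjusted p = 0.0196). Between sources its change was -0.61 ± 0.38 in small antral follicles (adjusted p = 0.315) and -2.54 ± 0.41 in preantral follicles (adjusted p = 0.0519). That last value passed the threshold with the authors' scale factors (adjusted p = 0.0442), with no filter on low counts (0.0334), without PF-TF replicate 2 (0.0334) and without PF-WT replicate 2 (0.0157), and missed it in the other edgeR fits tried.

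Bgn, the closest relative of Dcn, which carries a pair of such chains, is released as a ligand of Toll-like receptors as well as being part of the matrix. It measured 204 and 121 CPM in SAF-TF, 104 and 110 CPM in SAF-WT, 2.55 and 7.12 CPM in PF-TF, and 42.5 and 15.2 CPM in PF-WT. The SAF-TF libraries were both above the SAF-WT libraries, the reverse of the order in preantral follicles. The stage change was 5.06 ± 0.60 in TF (adjusted p = 2.0e-04) and 1.90 ± 0.51 in WT (adjusted p = 0.0179). The WT call was lost without SAF-WT replicate 1, SAF-WT replicate 2 or PF-WT replicate 2, with adjusted p-values of 0.0658, 0.0633 and 0.0767. The difference between both stage effects was 3.16 ± 0.74 (adjusted p = 0.0883), and DESeq2 gave 3.18 (adjusted p = 7.6e-04). It was 4.20 without PF-TF replicate 2, 3.72 without PF-WT replicate 2 and 2.22 without PF-WT replicate 1. Bgn between sources changed by 0.60 ± 0.49 in small antral follicles (adjusted p = 0.451) and -2.56 ± 0.56 in preantral follicles (adjusted p = 0.0641), the preantral value passing without PF-WT replicate 2 (0.0215).

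Aspn, which has an aspartate-rich stretch in place of a chain attachment site and binds collagen and TGF-beta, measured 71.5 and 49.3 CPM in SAF-TF, 1140 and 569 CPM in SAF-WT, 1.44 and 7.83 CPM in PF-TF, and 34.7 and 10.2 CPM in PF-WT. Its stage change was 3.68 ± 0.74 in TF (adjusted p = 0.0033) and 5.26 ± 0.75 in WT (adjusted p = 8.4e-04). Both SAF-TF libraries were below both SAF-WT libraries, a change of -3.82 ± 0.70 (adjusted p = 0.0132), 14.1-fold lower. In preantral follicles the source change was -2.25 ± 0.73 (adjusted p = 0.127).

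In the lumican class, Lum, a keratan sulfate carrier that spaces collagen fibrils in the cornea, measured 571 and 361 CPM in SAF-TF, 615 and 466 CPM in SAF-WT, 1.66 and 13.5 CPM in PF-TF, and 37.9 and 28.4 CPM in PF-WT. The small antral groups overlapped, and the PF-TF libraries differed from each other by a larger factor than those of any other group. Lum rose with stage by 5.92 ± 0.73 in TF (adjusted p = 2.4e-04) and by 4.03 ± 0.66 in WT (adjusted p = 0.0017). The source change was -0.21 ± 0.58 in small antral follicles (adjusted p = 0.847) and -2.11 ± 0.65 in preantral follicles (adjusted p = 0.114). Without PF-TF replicate 2 the preantral change was -4.34 (adjusted p = 0.0133) and the difference between both stage effects passed as well, at 4.17 (adjusted p = 0.0219).

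Fmod, which competes with lumican for a site on collagen, had 17 and 8 counts in SAF-TF, 35 and 36 counts in SAF-WT, 0 counts in both PF-TF libraries, and 9 and 1 counts in PF-WT. These are 1.87 and 0.90 CPM in SAF-TF, 4.02 and 4.27 CPM in SAF-WT, 0 in PF-TF, and 1.18 and 0.11 CPM in PF-WT. Fmod was at least 4.38-fold higher in SAF-TF than in PF-TF, against a floor of 3 counts per library (adjusted p = 0.0147, or 0.0598 without SAF-TF replicate 1). In WT the stage change was 2.69 ± 1.02 (adjusted p = 0.0697). It passed without PF-WT replicate 1 (5.17, adjusted p = 0.0255), without either PF-TF library (0.0446 and 0.0443), with the authors' scale factors and when only the WT libraries were fitted. Fmod in PF-TF was at least 2.04-fold lower than in PF-WT by the same floor (adjusted p = 0.149), a bound that rests on PF-WT replicate 1 alone, since replicate 2 had 1 count.

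Omd, which is known from bone matrix and binds an integrin of bone cells, followed another order. It measured 26.7 and 54.7 CPM in SAF-TF, 436 and 294 CPM in SAF-WT, 102 and 143 CPM in PF-TF, and 75.8 and 95.1 CPM in PF-WT. SAF-TF held the lowest libraries and SAF-WT the highest, with all 4 preantral follicles between them. Omd fell with stage in TF, by 1.59 ± 0.35 on the log2 scale (adjusted p = 0.0055), and rose with stage in WT, by 2.09 ± 0.35 (adjusted p = 0.0019). The difference between both stage effects was -3.69 ± 0.50 (adjusted p = 0.0146). DESeq2 called Omd, Bgn and Dcn for that difference, among 482 genes called upwards and 328 downwards. Omd was the 1 member of 8 called in the main fit, where 0.658% of all genes were called upwards and 0.245% downwards. SAF-TF was 8.97-fold lower than SAF-WT (-3.16 ± 0.37, adjusted p = 0.0029), while PF-TF and PF-WT differed by 0.52 ± 0.34 (adjusted p = 0.422), with PF-TF higher in both libraries. The calls of both stage effects, of the SAF source effect and of the difference held in every alternative run, with adjusted p-values of the difference up to 0.047.

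Prelp, a heparin-binding member found beside basement membranes, measured 8.36 and 5.75 CPM in SAF-TF, 14.6 and 13.03 CPM in SAF-WT, 25.3 and 17.7 CPM in PF-TF, and 27.2 and 16.5 CPM in PF-WT. It was highest in preantral follicles, where the sources overlapped. Prelp fell with stage in TF by 1.60 ± 0.38 on the log2 scale (adjusted p = 0.0078), a call lost without SAF-TF replicate 2 (0.0665) and without PF-TF replicate 1 (0.0676). Its stage change in WT was -0.66 ± 0.37 (adjusted p = 0.191), and its source changes were -0.97 ± 0.38 in small antral follicles (adjusted p = 0.13) and -0.03 ± 0.36 in preantral follicles (adjusted p = 0.981). An antisense gene, Gm15851, shares 350 exonic bases with Prelp, and the strand setting of the counting is not given in the sources used here, so reads of both may be mixed.

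Ogn, a member that also carries keratan sulfate in the cornea, had the highest level of all members in SAF-WT per length of transcript. It measured 459 and 356 CPM in SAF-TF, 4893 and 2950 CPM in SAF-WT, 7.86 and 28.2 CPM in PF-TF, and 150 and 55.3 CPM in PF-WT. The groups did not overlap, and PF-TF was the lowest. Ogn rose with stage by 4.49 ± 0.64 in TF (adjusted p = 5.4e-04) and by 5.26 ± 0.66 in WT (adjusted p = 4.1e-04). SAF-TF was 9.63-fold lower than SAF-WT (-3.27 ± 0.60, adjusted p = 0.0134). In preantral follicles the source change was -2.50 ± 0.60 (adjusted p = 0.0732), which passed without PF-WT replicate 2 (0.0314). The calls of Ogn and Aspn between SAF-TF and SAF-WT were lost without SAF-TF replicate 1, SAF-TF replicate 2 or SAF-WT replicate 1, with adjusted p-values of 0.0655 to 0.111 for Ogn and 0.0661 to 0.109 for Aspn, and all 3 left Omd as the 1 member called.

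Podn, a podocan known to hold back smooth muscle cell growth in mouse arteries, had 3 and 2 counts in SAF-TF, 7 and 4 in SAF-WT, 1 and 0 in PF-TF, and 0 and 2 in PF-WT. Podn was not tested in the main fit, so these few counts are given without a call.

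Marker lists of other cell types moved with the same comparisons. Their counts, and those of the gene lists further below, are to be read against the shares of all genes tested. With stage these were 18.2% higher and 25% lower in TF, and 12.7% higher and 22.5% lower in WT. Between SAF-TF and SAF-WT they were 4.61% higher and 5.34% lower. The 17 stromal and fibroblast markers summed to 1343 to 2203 CPM in SAF-TF, 2640 to 2804 in SAF-WT, 296 to 339 in PF-TF and 295 to 476 in PF-WT. Of these, 14 of 17 were higher with stage in TF, and in WT 10 of 17 were higher and 1 lower. The 12 smooth muscle and pericyte markers summed to 1781 to 2648 CPM in SAF-TF, 3619 to 4294 in SAF-WT, 140 to 169 in PF-TF and 263 to 811 in PF-WT, with 11 of 12 and 8 of 12 higher with stage in TF and WT. The 10 theca and interstitial markers summed to 12644 to 18816 CPM in SAF-TF, 4302 to 5204 in SAF-WT, 1702 to 3006 in PF-TF and 908 to 1093 in PF-WT. In the theca list, 6 of the 9 tested were higher with stage in TF and 9 in WT. For SAF-TF against SAF-WT, 3 of the 9 were higher and 5 lower. Their median there was -1.93 on the log2 scale, although the summed CPM was higher in SAF-TF. Lhcgr and Hsd3b1, both higher in SAF-TF, are on the theca list and on the luteal list below, and enter the counts and sums of both. The 15 oocyte markers summed to 230 to 457 CPM in SAF-TF, 553 to 2685 in SAF-WT, 14884 to 17536 in PF-TF and 7013 to 8189 in PF-WT, and 14 and 9 of 15 were lower with stage in TF and WT. SAF-TF also stood apart in its luteal markers, which summed to 25999 to 36242 CPM in SAF-TF and 3390 to 4119 CPM in SAF-WT with 8 of 8 higher, and in 3 of 12 macrophage markers that were higher (912 to 1457 CPM in SAF-TF and 373 to 454 CPM in SAF-WT, summed). Of the stromal markers 1 was higher and 1 lower between SAF-TF and SAF-WT, with a median log2 fold change of -0.66. There 0 of the 12 smooth muscle markers were called, and their median log2 fold change was -0.40. In the same comparison 2 of 10 granulosa markers and 1 of 10 surface epithelium markers were higher. Lower were 2 of 15 oocyte markers and 1 of 10 endothelial markers. Between PF-TF and PF-WT, 1 stromal marker was lower and 0 markers of the other 8 lists were called. The median log2 fold changes there were -2.35 for macrophage, -2.20 for surface epithelium and -2.01 for stromal markers. They were -1.24 for theca, -1.04 for smooth muscle, -0.71 for endothelial and -0.30 for luteal markers, and 0.14 for granulosa and 1.22 for oocyte markers. The 8 tested members had -2.37 and all genes -0.03. In the endothelial list 5 of 10 and 4 of 10 were higher with stage in TF and WT, and 0 and 1 were lower. In the surface epithelium list 8 of 10 and 4 of 10 were higher, and 1 and 1 were lower. The macrophage list had 12 of 12 and 3 of 12 higher, and the luteal list 8 of 8 and 4 of 8. In the granulosa list 2 of 10 and 5 of 10 were lower. The part of these cell types in the proteoglycan changes was not tested.

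The members called lower in SAF-TF than in SAF-WT are neighbours. Aspn (49544443 to 49567565), Omd (49582462 to 49592822) and Ogn (49608046 to 49624501) lie in this order on the plus strand of mouse chromosome 13, on GRCm38 by GENCODE M21, just downstream of Ecm2, a related leucine-rich repeat gene (49504810 to 49532789). The remaining tested members lie on chromosome 10 (Dcn and Lum, side by side), chromosome 1 (Prelp and Fmod) and the X chromosome (Bgn). Between SAF-TF and SAF-WT, Ecm2 was lower too, at 16.3 and 16.9 CPM in SAF-TF and 46.3 and 36.0 CPM in SAF-WT (-1.31 ± 0.31, adjusted p = 0.0296). Cenpp, a centromere protein gene that spans the whole cluster on the opposite strand, measured 16.7 and 31.9 CPM in SAF-TF and 134 and 125 CPM in SAF-WT (-2.41 ± 0.31, adjusted p = 0.0040). Cenpp shares 7 exonic bases with Aspn and 0 with Omd, Ogn and Ecm2, but intronic reads counted without strand could not be told apart. Of the flanking genes, Ippk was lower (-1.13 ± 0.27, adjusted p = 0.0342), while Bicd2 (-0.21 ± 0.32), Tes3-ps (0.14 ± 0.35), Nol8 (-0.81 ± 0.23, adjusted p = 0.057) and Iars (-0.18 ± 0.29) did not pass the threshold. With stage in TF the genes of the cluster did not move as a block. Ecm2, Aspn and Ogn were higher (Ecm2 by 0.97 ± 0.31, adjusted p = 0.0302) and Omd and Cenpp were lower (Cenpp by -1.52 ± 0.30, adjusted p = 0.0032). In WT, Ecm2, Aspn, Omd and Ogn were all called higher (Ecm2 by 2.58 ± 0.32, adjusted p = 4.1e-04). Cenpp was not called there and had a value of 0.04 ± 0.29 (adjusted p = 0.917).

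The promoter sequences of these 3 neighbours are shown because the genes were called lower together in SAF-TF. They are the 250 bases before the RefSeq start of each gene on GRCm38.p6, plus strand, at chr13:49544193-49544442 (Aspn), chr13:49582212-49582461 (Omd) and chr13:49607765-49608014 (Ogn), with capitals for matches to the motifs searched on either strand; RefSeq promoter entries were found for 7 of the 9 members, Dcn and Lum being the members with none.
Aspn: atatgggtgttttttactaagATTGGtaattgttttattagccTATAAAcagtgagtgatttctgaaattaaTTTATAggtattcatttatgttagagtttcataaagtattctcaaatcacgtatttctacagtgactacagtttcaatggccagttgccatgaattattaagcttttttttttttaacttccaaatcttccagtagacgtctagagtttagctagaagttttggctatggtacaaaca
Omd: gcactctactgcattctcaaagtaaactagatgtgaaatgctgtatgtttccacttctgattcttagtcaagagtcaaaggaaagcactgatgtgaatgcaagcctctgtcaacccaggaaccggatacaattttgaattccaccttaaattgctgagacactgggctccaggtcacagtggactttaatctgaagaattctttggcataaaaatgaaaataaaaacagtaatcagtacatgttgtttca
Ogn: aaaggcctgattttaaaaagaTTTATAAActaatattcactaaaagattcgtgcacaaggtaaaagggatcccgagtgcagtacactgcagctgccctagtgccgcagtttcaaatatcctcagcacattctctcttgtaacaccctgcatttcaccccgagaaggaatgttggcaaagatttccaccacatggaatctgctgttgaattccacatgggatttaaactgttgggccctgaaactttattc
The motifs searched were the TATA box (TATAAA), the CCAAT box (written CCAAT), the GC box bound by Sp1 (GGGCGG), the AP-1 site (TGANTCA) and the core SF-1 site (AAGGTCA). The TATA box was present in the Aspn window, with 2 separate matches, and in the Ogn window, with 2 overlapping matches on opposite strands, and 12.4% of all 32851 RefSeq promoter windows of the same length hold it. The CCAAT box had 1 match in the Aspn window (33.8% of all windows), and none of the 5 motifs had a match in the Omd window. The GC box, the AP-1 site and the SF-1 site, held by 32.7%, 6.7% and 4.1% of all windows, had no match in these 3. The GC content was 30.0% for Aspn, 38.4% for Omd and 42.0% for Ogn, below the median of 52.4% over all windows, and 64.4% for Bgn, whose window held 3 GC boxes. A match is a description of the letters only.

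**Figure D3:**
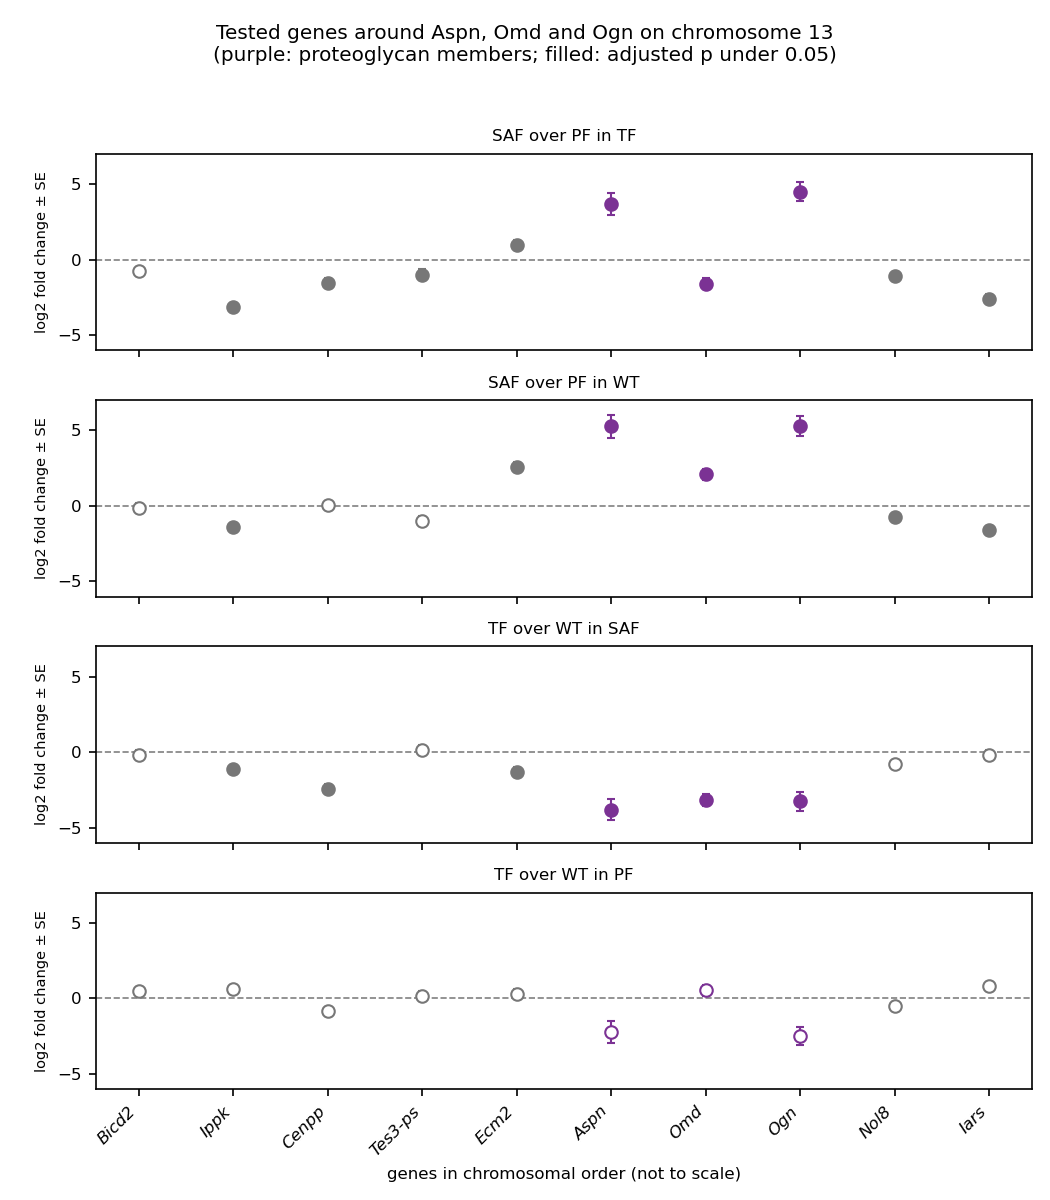
Log2 fold changes ± SE of the tested genes around Aspn, Omd and Ogn in chromosomal order, in the 4 comparisons; members are purple, and filled points have an adjusted p under 0.05. Between SAF-TF and SAF-WT, Aspn, Omd and Ogn lie between -3.82 and -3.16, with Cenpp at -2.41 and Ecm2 at -1.31.

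The composition of the family within a library does not depend on the scaling between libraries. Per kilobase of the longest annotated transcript, Ogn had the highest level of the 9 members in SAF-WT, 60.3% to 62.7% of their summed CPM per kilobase, and Omd the highest in PF-TF, 67.2% to 76.6%. In SAF-TF, Lum was highest by this length (32.1% to 35.9%) and Dcn by the length of its longest coding transcript (36.1% to 36.3%), since the longest annotated Dcn transcript has 4692 bases. In PF-WT, Ogn led by the longest transcript (39.9 ± 26.0 CPM per kilobase), Dcn by the coding length (40.4 ± 16.6) and Omd by the mean length of the annotated transcripts (44.9), differences within the spread of the libraries. Fmod and Podn had the lowest levels in every group. In order of CPM per kilobase (SD, n = 2), SAF-WT held Ogn at 1528 ± 535, Aspn at 367 ± 173, Lum at 221 ± 43.2, Omd at 162 ± 44.5, Dcn at 151 ± 5.82, Bgn at 40.2 ± 1.78 and Prelp at 3.82 ± 0.30. There the libraries of Aspn and Lum, of Lum and Omd, and of Omd and Dcn overlap. SAF-TF held Lum at 190 ± 60.8, Ogn at 159 ± 28.5, Dcn at 98.6 ± 24.5, Bgn at 61.0 ± 22.1, Aspn at 25.9 ± 6.74, Omd at 18.1 ± 8.80 and Prelp at 1.95 ± 0.51, with overlaps between Lum and Ogn and between Aspn and Omd. PF-TF held Omd at 54.6 ± 12.9, above Ogn at 7.03 ± 5.60, Prelp at 5.94 ± 1.48, Lum at 3.11 ± 3.43, Dcn at 2.59 ± 1.45, Aspn at 1.99 ± 1.94 and Bgn at 1.81 ± 1.21, where each gene after Omd overlaps with the next. The position of Dcn depends on the length used: in SAF-WT it was 402 CPM per kilobase by the coding length and 393 by the mean length, next after Ogn, in place of 151.

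As counts over the Dcn count of the same library, the members separate into several patterns. Ogn was 0.844 and 0.933 of Dcn in SAF-TF and 6.74 and 4.29 times Dcn in SAF-WT, with PF-TF at 1.08 and 1.66 and PF-WT at 1.63 and 1.10. Aspn was 0.131 and 0.129 of Dcn in SAF-TF and 1.57 and 0.828 in SAF-WT. The Ogn and Aspn ratios of SAF-TF were thus below those of every other library, PF-TF with Aspn at 0.197 and 0.462 and PF-WT with 0.378 and 0.203 included. Bgn ran the other way, at 0.376 and 0.317 of Dcn in SAF-TF and 0.143 and 0.161 in SAF-WT, with the preantral libraries at 0.302 to 0.464. Omd was 14.0 and 8.45 times Dcn in PF-TF, against 0.827 and 1.89 in PF-WT, and 0.0491 and 0.143 in SAF-TF, against 0.601 and 0.428 in SAF-WT. Lum stayed between 0.227 and 1.05 of Dcn in all 8 libraries. No test was run on these ratios, which are given as values of the libraries.

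**Figure D4:**
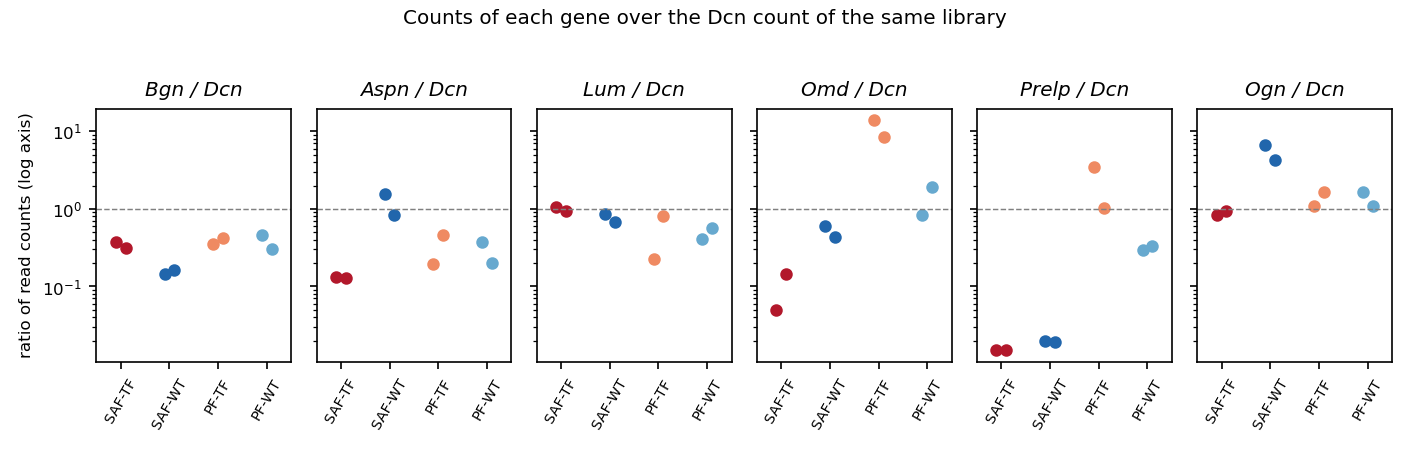
Read count of each member over the Dcn read count of the same library (log axis), with 1 point per library and a dashed line at equal counts. Ogn and Aspn over Dcn are highest in SAF-WT and lowest in SAF-TF, Bgn over Dcn is lowest in SAF-WT, and Omd and Prelp over Dcn are highest in PF-TF.

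Among the members, Ogn and Aspn had the most similar profile over the 8 libraries, with a root mean square difference of 0.32 between their centred log2 values (0.5 CPM added). Dcn was 0.60 from Bgn and 0.61 from Lum, Omd and Prelp were 1.17 apart, and Lum and Prelp were farthest apart at 3.37. By the same measure over 9572 genes with a mean of at least 10 CPM over the 8 libraries, genes near in profile were Sparcl1, Ppp1r14a and Cav1 to Dcn (0.22 to 0.28), Sparcl1, Vgll3 and Efemp1 to Lum (0.45 to 0.60), Cxcl12, Sp100 and Cp to Bgn (0.21 to 0.42), Mfap5, Tm4sf1 and Angpt1 to Ogn (0.47 to 0.67), Hhip, Mfap5 and Angpt1 to Aspn (0.53 to 0.62), Gjc1 and Gpm6b to Omd (0.53 and 0.55) and Zfp955b, Zfand2a and Pigf to Prelp (0.14 to 0.21). The mean profile of these 7 members was nearest to Wipf1 (0.27), Calml4 (0.33), LOC102632341 (0.33) and Mylk (0.35).

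Of other leucine-rich repeat proteoglycans, Ecm2, Optc (opticin), Chad (chondroadherin) and Nyx (nyctalopin) were listed for both sources. Optc measured 1.21 and 0.79 CPM in SAF-TF, 1.95 and 1.78 CPM in SAF-WT, 0 in PF-TF and 0.92 and 0.11 CPM in PF-WT, at least 3.16-fold higher in SAF-TF than in PF-TF (adjusted p = 0.0211). Chad was the reverse, with 0 counts in all small antral follicles and a mean of 0.96 CPM in PF-TF and 0.98 CPM in PF-WT, at least 2.87-fold and 2.81-fold lower with stage (adjusted p = 0.0288 and 0.035). Chad lies within Acsf2 on the opposite strand. Nyx had 6 counts or fewer in every library. Keratocan (Kera), listed for WT only, had 0 counts in SAF-WT and 14 and 20 in PF-WT, and Podnl1, listed for TF only, had 9 and 2 counts in SAF-TF and 0 in PF-TF.

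Of a list of 11 collagen genes that holds fibrillar chains (Col1a1, Col1a2, Col3a1, Col5a1, Col5a2 and Col11a1), fibril-associated chains (Col12a1 and Col14a1) and the beaded filament chains Col6a1, Col6a2 and Col6a3, 8 of 11 rose with stage in TF and 10 of 11 in WT, 0 fell in either comparison, and 4 of 11 were lower in SAF-TF than in SAF-WT. Their median log2 fold changes were 2.89 and 2.22 with stage and -0.75 and -1.29 between sources in small antral and preantral follicles. Col1a2 measured 180 and 118 CPM in SAF-TF, 509 and 486 CPM in SAF-WT, 16.8 and 21.6 CPM in PF-TF, and 80.4 and 22.7 CPM in PF-WT, and was lower in SAF-TF than in SAF-WT by 1.74 ± 0.47 on the log2 scale (adjusted p = 0.0465). Col3a1 rose with stage by 3.75 ± 0.60 in TF and 3.17 ± 0.58 in WT (adjusted p = 0.0010 and 0.0028). Summed over the 11 genes, these collagen transcripts reached 438 to 685 CPM in SAF-TF, 1423 to 1471 in SAF-WT, 75.4 to 127 in PF-TF and 107 to 295 in PF-WT, where the 9 proteoglycans reached 1330 to 1888, 5094 to 7933, 149 to 235 and 271 to 461 CPM.

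Genes of both directions were called among the enzymes that build the sugar chains, in numbers to be read against 18.2% of all genes higher and 25% lower with stage in TF and 12.7% and 22.5% in WT. Of 22 tested genes for the linker and for chondroitin and dermatan sulfate, 6 rose and 2 fell with stage in TF, 3 rose and 1 fell in WT, and 1 was higher and 1 lower in SAF-TF than in SAF-WT. Chst7, a chondroitin sulfotransferase, fell with stage, with log2 fold changes of -4.24 ± 0.53 in TF and -4.08 ± 0.52 in WT (adjusted p = 2.5e-04 and 4.4e-04). Chsy1, a chondroitin synthase, measured 10.4 and 12.9 CPM in SAF-TF and 35.7 and 29.6 CPM in SAF-WT (-1.49 ± 0.32, adjusted p = 0.0233). Of 8 keratan sulfate genes, 1 rose and 3 fell with stage in TF, 1 rose and 1 fell in WT, and 1 was higher in SAF-TF. B4galt4, a galactosyltransferase, fell with stage, with log2 fold changes of -2.38 ± 0.36 in TF and -3.33 ± 0.37 in WT (adjusted p = 7.2e-04 and 2.3e-04), and Chst2, which sulfates N-acetylglucosamine, rose by 2.63 ± 0.78 and 3.51 ± 0.75 (adjusted p = 0.0212 and 0.0063).

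Of 12 proteases and cofactors that act on the core proteins or on procollagen, 4 rose and 2 fell with stage in TF and 0 rose and 2 fell in WT. Between SAF-TF and SAF-WT, 1 was higher (Pcolce) and 1 lower (Pcolce2). Pcolce2 measured 0 CPM in both SAF-TF libraries and 1.03 and 1.30 CPM in SAF-WT (adjusted p = 0.0445). Pcolce, the enhancer of procollagen C-proteinase, measured 266 and 79.5 CPM in SAF-TF and 20.1 and 32.3 CPM in SAF-WT (2.72 ± 0.50, adjusted p = 0.0132), and Mmp2, a gelatinase, fell with stage, with log2 fold changes of -1.31 ± 0.30 in TF and -1.27 ± 0.30 in WT (adjusted p = 0.0065 and 0.0097). Of 17 ligands and receptors, 7 rose and 2 fell with stage in TF, 6 rose and 3 fell in WT, and 1 was higher in SAF-TF than in SAF-WT. Tgfb2, a TGF-beta ligand, measured 16.2 and 11.4 CPM in SAF-TF, 18.0 and 12.1 CPM in SAF-WT, 294 and 314 CPM in PF-TF, and 456 and 287 CPM in PF-WT. It fell with stage, with log2 fold changes of -4.46 ± 0.33 in TF (adjusted p = 2.1e-05) and -4.62 ± 0.33 in WT (adjusted p = 4.6e-05), while its receptor gene Tgfbr2 rose by 4.26 ± 0.74 and 2.96 ± 0.64 (adjusted p = 0.0016 and 0.0067). Of 6 tested genes of a list of other proteoglycans and of the link protein Hapln1, 0 changed with stage in TF and 1, Hapln1, which ties proteoglycans to hyaluronan, rose in WT, where SAF-WT held 1.84 and 1.66 CPM and PF-WT 0. In none of these pathway lists was a gene called between PF-TF and PF-WT.

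In the authors' deposited table, 5 members were higher and 2 lower with stage in TF at the adjusted p threshold of 0.05, and 6 were higher and 0 lower in WT. Fmod in TF, which the deposited table gives an FDR of 0.99999 with 0 counts in PF-TF, is the 1 member called by edgeR and not there.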

How the data were processed

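RNA of 8 single follicles, copied with a low-input polyA kit, was measured in 2 tables, 1 per follicle source. Per the file headers, the authors deposited raw read counts per gene and library. They also deposited a normalized signal per group, a log2 ratio of SAF over PF set to a limit where a group is 0, and an adjusted p-value (FDR) of their own comparison within a source. HISAT2 2.0.1 and the build GRCm38 are named in the submitters' processing notes. For the read counter and its strand setting, no source used here gives a name or value.

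The counts of genes listed for both sources were fitted together with edgeR 4.0.16 (R 4.3.3): filterByExpr (min.count 10, min.total.count 15), TMM factors, 1 mean per group, quasi-likelihood F tests with 4 residual degrees of freedom, and Benjamini-Hochberg adjustment over all genes tested. Each SE was derived from the fold change and its F statistic. The fit was tested on simulated data. Alternatives were RLE factors, total counts or the authors' scale factors, other filters, DESeq2 1.42.0, only the libraries compared, a replicate block and each library left out; coding length was added after seeing the data. Same-numbered replicates of different groups deviated together with correlations of -0.23 to 0.20, so the numbers were not taken as pairs. Lengths and positions came from GENCODE M21 and promoters from RefSeq.

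All 9 members are named whatever their values, as are up to 4 genes per list with the smallest p and the genes nearest in profile, of which 1 is not reported here. The members and lists were chosen with earlier results of these data known.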

Additional observations from a re-analysis of the deposited data

Results flagged for a closer look

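The stage effect of Omd differed between the sources. Small antral minus preantral, it was -1.59 in TF and 2.09 in WT, a difference of -3.69 ± 0.50 on the log2 scale (edgeR interaction term, adjusted p = 0.0146). Both SAF-TF libraries were below both PF-TF libraries, and both SAF-WT libraries were above both PF-WT libraries.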

How the results depend on the processing

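With 2 follicles per group, single libraries decide several calls. Without 1 library, members called numbered 1 to 3 for the stage by source difference, 0 to 3 between PF-TF and PF-WT, and 1 to 3 between SAF-TF and SAF-WT. DESeq2 called 3 members for the difference and 3 between PF-TF and PF-WT, where the authors' scale factors and no filter on low counts each gave 1. Counts over all genes moved as follows. In the TF stage comparison a mean of at least 10 CPM gave 4901 calls in place of 7744, and in the WT stage comparison leaving out 1 library gave 3119 to 6563 in place of 6294. Between SAF-TF and SAF-WT, 1785 calls became 2849 with DESeq2, 3884 with only the libraries compared and 116 to 2479 without 1 library. Between PF-TF and PF-WT, 39 calls became 16 with total counts, 65 with the authors' scale factors, 207 without a filter, 1281 with DESeq2, 19 with only the libraries compared and 1 to 865 without 1 library. The stage by source difference had 162 calls, 810 with DESeq2 and 23 to 291 without 1 library. The replicate block gave 1069, 6 and 74 calls for these 3 comparisons, and changed no count of members called. Per kilobase, the members of SAF-TF summed to 769 with mean transcript lengths and 726 with coding lengths in place of 555 CPM.

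Signs turned for some uncalled values. Without 1 library, the stage by source difference ran from -2.73 to 0.22 for Aspn and from -1.68 to 0.54 for Ogn, above 0 without PF-TF replicate 2. Lum between SAF-TF and SAF-WT ran from -0.58 to 0.0803, above 0 without SAF-TF replicate 2 and without SAF-WT replicate 1. Prelp between PF-TF and PF-WT ran from -0.34 to 0.43, above 0 without PF-TF replicate 2 and without PF-WT replicate 1, and was 0.0538 with total counts and 0.0028 with only the libraries compared. Of the other values of single members, 587 kept their direction and side of the threshold, 20 passed it newly and 12 no longer did. The causes were not tested. Depth limits Fmod and Podn, with at most 36 and 7 counts in any library.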
